A study of Mus musculus with 26 samples.

Results

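Solute carrier genes, whose symbols start with Slc and a number, encode proteins that move nutrients, ions and metabolites across cell and organelle membranes. Every row of the table with such a symbol was taken, which gave 229 of 13765 genes. Of these, 224 are carriers of 44 families, and 5 are named after a carrier without being one (Slc4a1ap, Slc7a6os, Slc9a3r1, Slc9a3r2 and Slc2a4rg-ps). They were measured in double positive thymocytes, the stage that carries both CD4 and CD8, sorted as viable CD4+CD8b+TCR- cells from 3 sites of female C57BL/6J mice aged 8 weeks: the aortic arch, the mediastinal adipose tissue and the thymus. The labels name no transgene or treatment for any group. Each pool joined 5 mice, there were 4 pools per tissue, and the 9 arch, 8 adipose and 9 thymus libraries had been combined to 1 value per gene and pool, so n = 4 pools per tissue throughout. Pools rested on unlike numbers of libraries: pool 1 of each tissue on 3, adipose pool 2 on 1 and the others on 2. Arch and adipose tissue were enzymatically digested before the sort, and digestion is not stated for thymus, so tissue and digestion cannot be told apart. Each library was made from 200 cells.

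Amino acid carriers of the plasma membrane set how much leucine, glutamine or cystine a lymphocyte can take up, and several work as pairs of a catalytic light chain with the heavy chain CD98, which Slc3a2 encodes. Zinc is imported into the cytosol by the Slc39 family and moved out of it by the Slc30 family, while Slc2 carriers bring in glucose. The Slc25 family sits mostly in the inner mitochondrial membrane, where it exchanges ATP, phosphate, amino acids and other solutes, and the Slc35 family carries nucleotide sugars into the Golgi and the endoplasmic reticulum for glycosylation. Genes were put into substrate classes by their family number, so single members of a class may carry other solutes.

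Values are normalised read counts, the reads of a gene divided by a size factor of its pool. Recovered reads ranged from 11577253 to 34599519 per pool. Arch pools 2 and 4 and thymus pool 3 had the fewest reads per library. Markers of double positive thymocytes (13 of 13 measured, among them Cd4, Cd8a, Cd8b1, Rag1 and Dntt) had reads in every pool and summed to 11291 to 12460 CPM (reads scaled to a common library total) in arch, 9862 to 17754 CPM in adipose pools and 25338 to 28932 CPM in thymus pools. Markers of cells outside the sort were uneven. Fibroblast markers (10 of 10 measured) summed to 125 to 6074 CPM in arch, highest in pool 4, to 59.1 to 389.8 CPM in adipose pools and to 88.9 to 298 CPM in thymus pools. Smooth muscle markers (7 of 7) summed to 0.560 to 1883 CPM in arch, highest in pool 2, to 0.0372 to 9.93 CPM in adipose pools and to 0 to 3.31 CPM in thymus pools. Macrophage markers (9 of 10) reached 1587 CPM in arch pool 2 and B cell markers (8 of 9) reached 1773 CPM in adipose pool 1. The part of these cells in the differences below was not tested. Each count was also made without arch pools 2 and 4 and adipose pool 1, and the calls lost there are named below. The sorts are bulk samples, in which fewer cells of a type and less RNA per cell cannot be told apart.

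The Slc genes together took 1.06% ± 0.106 of the reads in arch, 1.12% ± 0.0522 in adipose pools and 1.12% ± 0.0562 in thymus pools (SD, n = 4). Of the 229, 138 reached a value of 100 in at least 4 pools and were tested. The other 91 were not tested. Among them, 42 stayed under 100 in every pool, 49 reached it in 1 to 3 pools, and 2 reached 1000. Those 2, singled out after their values were seen, peaked in arch pool 4, where fibroblast markers were high: Slc10a6, a sodium-dependent steroid sulphate carrier gene, had 2604 there, and Slc6a2, the noradrenaline transporter gene, had 1207. Slc10a6 had no read in the other arch pools or in thymus, and 148 in adipose pool 1.

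A gene was called where limma's adjusted p (Benjamini-Hochberg over all 9106 tested genes) was under 0.05. Arch against thymus gave 6 Slc genes higher, 4 lower and 128 not called of 138. In all tested genes 3.99% were called higher and 2.58% lower, and the Slc shares, 4.35% and 2.90%, were near that background. Adipose tissue against thymus gave 4 higher, 1 lower and 133 not called, against backgrounds of 2.17% and 0.67% and Slc shares of 2.90% and 0.725%. Arch against adipose tissue gave 0 of 138 in either direction, where 0.0988% and 0.0769% of all genes were called. In that comparison 16 Slc genes had an unadjusted p under 0.05, edgeR also called 0, and DESeq2 called Slc38a2 higher and Slc25a24 lower. Against thymus, 34 Slc genes in arch and 22 in adipose tissue had such an unadjusted p. The share of all genes at that threshold was not counted. Counts by unadjusted p, here and for sugar, ion and nucleoside carriers below, therefore have no background. The background shares at adjusted p under 0.05 apply to the counts of calls by class below.

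The median log2 change of the tested Slc genes was -0.31 in arch against thymus (all genes -0.20), -0.01 in adipose tissue against thymus (all genes -0.01) and -0.26 in arch against adipose tissue (all genes -0.17). Pool values did not overlap between the tissues for 15, 20 and 5 Slc genes in these comparisons, of 138 each. Among all genes the share was 13.2%, 10.5% and 5.35%. The comparisons share pools: thymus enters both comparisons named first, and arch and adipose pools enter 2 each.

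In total 11 Slc genes were called in at least 1 comparison. Slc35d1, Slc3a2 and Slc25a3 rose in both arch and adipose tissue against thymus, and Slc16a5 fell in both. Slc38a2, Slc16a6 and Slc5a3 were called higher, and Slc44a2, Slc39a6 and Slc25a22 lower, in arch against thymus. Slc7a11 was called higher in adipose tissue against thymus. A call against thymus for one tissue and none for the other is no difference between them, and none of the 11 passed the test of arch against adipose tissue. Of the 15 calls, 10 held in each of the 8 fits that left out 1 pool of the comparison, and 9 held in those and in 10 other settings. Without the pools with raised markers of other cells, Slc16a6, Slc25a22 and Slc5a3 lost their calls in arch against thymus. Slc7a11 lost its call in adipose tissue against thymus there.

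**Figure D1:**
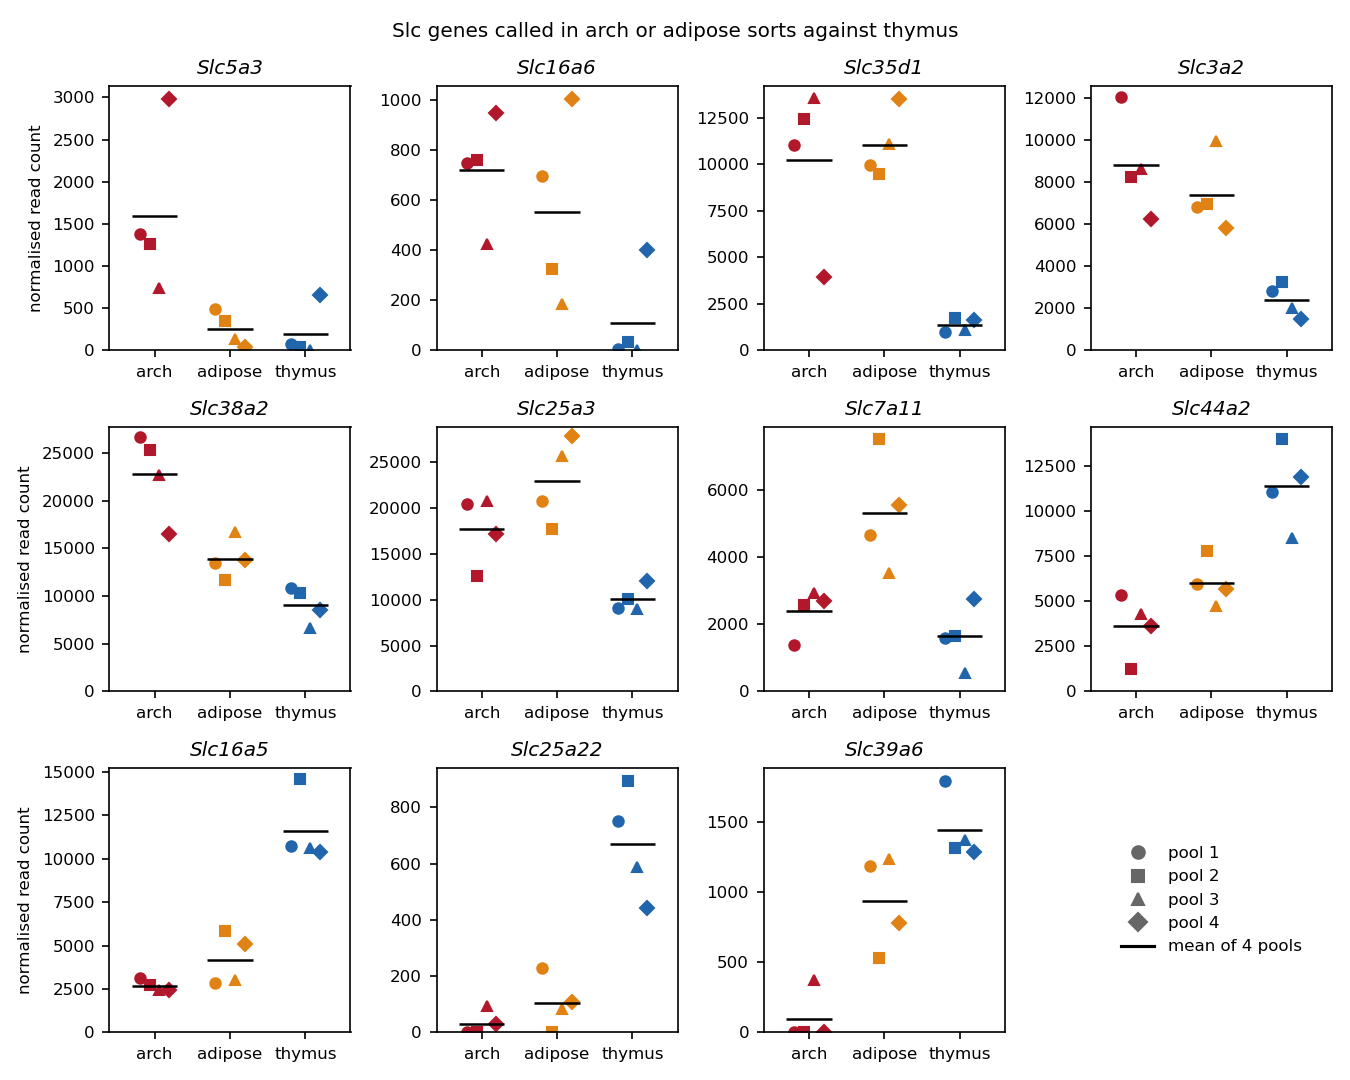
Normalised read counts (vertical axes, linear, each starting at 0) of the 11 called Slc genes in 4 pools each of arch, adipose tissue and thymus. Symbols mark pool numbers and lines mark means; all thymus pools of Slc35d1 lie below the lowest pool of the other tissues, and Slc39a6 is at 0 in arch pools 2 and 4.

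Levels differ between genes partly because longer transcripts give more reads, so genes are ranked here by the normalised read count per kb of exon. The adenine nucleotide translocator gene Slc25a5, which exchanges ADP for ATP across the inner mitochondrial membrane, ranked first in every tissue, with 31586 ± 3546 per kb in arch, 26169 ± 4229 in adipose pools and 27528 ± 2754 in thymus pools (SD, n = 4). The gene ranked next was Slc25a3 in arch and adipose tissue and Slc16a5 in thymus. Per kb, Slc16a5 held 1306 ± 151 in arch, 2037 ± 731 in adipose pools and 5622 ± 983 in thymus pools, and its rank was 11, 9 and 2. Slc35d1 moved the other way in rank: 6 in arch, 4 in adipose pools and 47 in thymus pools.

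**Figure D2:**
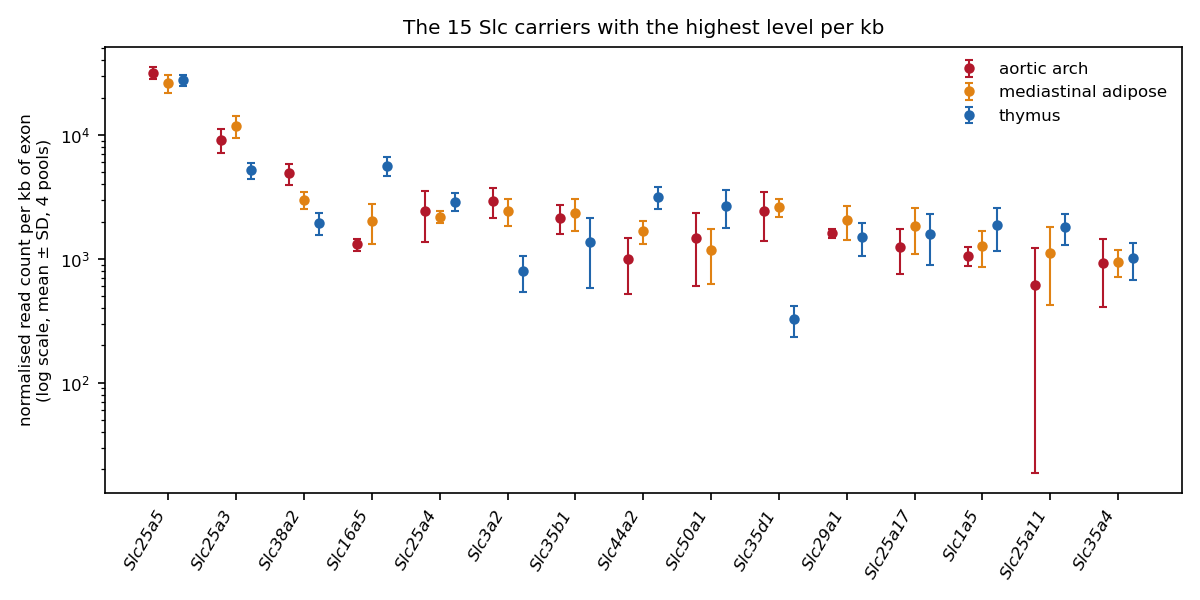
Normalised read count per kb of exon (log axis) of the 15 Slc carriers with the highest level, as mean ± SD of 4 pools in arch, adipose tissue and thymus. Slc25a5 stands above the others in each tissue, and the arch and adipose points of Slc35d1 lie furthest above its thymus point.

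Among amino acid carriers, 20 of 43 members were tested. Slc38a2 and Slc3a2 rose in arch against thymus, Slc3a2 and Slc7a11 rose in adipose tissue against thymus, none fell, and each comparison left 18 of the 20 not called. DESeq2 also called Slc15a2, Slc36a1 and Slc38a1 higher and Slc38a10 lower in arch against thymus. The class median was 0.56 in arch against thymus, 0.08 in adipose tissue against thymus and -0.21 in arch against adipose tissue (log2). The class took 24.01% ± 0.736 of all Slc signal in arch, 20.1% ± 1.67 in adipose pools and 16.1% ± 2.44 in thymus pools (SD, n = 4). Slc38a2 alone took 9.89% in arch, 6.14% in adipose pools and 4.17% in thymus pools, and Slc3a2 took 3.79%, 3.27% and 1.10%. The 41 other members of the class together took 10.3% ± 2.17 in arch, 10.7% ± 1.78 in adipose pools and 10.8% ± 2.00 in thymus pools, so their summed share differed by less than the spread between pools.

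Slc3a2 encodes the heavy chain CD98, which brings several light chains to the cell surface (chromosome 19, 8706882 to 8723369, reverse strand in GRCm38). It had 12067, 8269, 8637 and 6274 in arch pools 1 to 4, 6816, 6974, 9992 and 5812 in adipose pools and 2853, 3246, 2007 and 1516 in thymus pools. Every arch and every adipose pool lay above every thymus pool. The log2 change was 1.89 ± 0.29 (SE) in arch against thymus (limma adjusted p = 0.00042) and 1.64 ± 0.29 in adipose tissue against thymus (adjusted p = 0.00216). Arch and adipose pools overlapped, and their difference was 0.24 ± 0.29 (adjusted p = 0.808).

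Of the light chains that pair with CD98, Slc7a11 was called in adipose tissue against thymus and none in arch against thymus. Slc7a11, the cystine and glutamate exchanger (chromosome 3, 49892526 to 50443614, reverse strand), had 1379, 2569.8, 2923 and 2687 in arch pools, 4655, 7540.2, 3521 and 5563 in adipose pools and 1606, 1655, 545 and 2762 in thymus pools. The 4 adipose pools lay above all 8 others. It rose by 1.84 ± 0.44 in adipose tissue against thymus (limma adjusted p = 0.024), while arch against thymus gave 0.69 ± 0.44 (adjusted p = 0.369) and arch against adipose tissue -1.15 ± 0.44 (adjusted p = 0.408). The call was lost without adipose pool 1, 2 or 4 or without thymus pool 3, with adjusted p up to 0.0839, and also by edgeR, without the filter on low values and without the pools with raised markers of other cells.

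Slc7a5, the large neutral amino acid light chain that brings in leucine, had 1276, 133, 267 and 1.55 in arch, 1940.3, 251, 409.8 and 290.5 in adipose tissue and 0, 265, 0 and 5.77 in thymus. Pools of 1 tissue spanned a wide range, and the change of 3.64 ± 1.29 in adipose tissue against thymus was not called (limma adjusted p = 0.179). Slc7a6, another light chain, named here after its values were seen, had 4103, 39.9, 2086 and 2729 in arch, 4017, 1641, 553 and 2654 in adipose tissue and 3270.1, 2407, 1053 and 1864 in thymus, and the tissues overlapped.

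The Slc7a11 promoter is shown because this gene is a textbook target of the transcription factor ATF4, which acts when amino acids run short, through sites for C/EBP-ATF pairs. The window from RefSeq runs from 250 bases before to 50 after the gene start at 3:50443564-50443863 on the reverse strand of GRCm38.p6. Capitals mark matches to TGATGNAA on either strand, at -66 and -47 from the gene start.
Slc7a11: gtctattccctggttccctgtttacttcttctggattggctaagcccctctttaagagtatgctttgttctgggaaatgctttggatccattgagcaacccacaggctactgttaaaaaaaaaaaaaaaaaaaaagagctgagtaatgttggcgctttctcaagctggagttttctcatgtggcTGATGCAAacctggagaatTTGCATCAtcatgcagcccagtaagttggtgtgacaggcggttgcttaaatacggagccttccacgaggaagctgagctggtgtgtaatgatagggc
Such a match occurred in 3.97% of 32851 promoter windows of this length and in 5 of 146 windows of Slc genes. Of the 8 called genes with a window, Slc7a11 alone held one. Other motifs were searched in the same windows. The antioxidant response element core (TGACNNNGC) occurred in 4 of the 8 genes, in 12.4% of all windows and in 22.6% of Slc windows. The G form of the metal response element (TGCGCNC) occurred in 3 of the 8, in 15.4% of all windows and in 23.3% of Slc windows. The 8 genes had 11 windows, and a gene was counted if any of its windows held a match. Counts of genes and shares of windows are therefore unlike measures. The last bases of the windows of Slc35d1 and Slc3a2 were not found in transcripts of those genes in the GENCODE annotation. Slc35d1 is among both the 4 and the 3 genes. The part of any motif in the changes was not tested.

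Slc38a2, the sodium-coupled carrier SNAT2 for small neutral amino acids such as glutamine and alanine (chromosome 15, 96687392 to 96699730, reverse strand), had 26739, 25373, 22656 and 16481 in arch pools, 13523, 11702, 16728 and 13743 in adipose pools and 10866, 10350.2, 6662 and 8539 in thymus pools. Levels were highest in arch and lowest in thymus, and the only overlap was between arch pool 4 and adipose pool 3. It rose by 1.32 ± 0.21 in arch against thymus (limma adjusted p = 0.000508). In adipose tissue against thymus the change was 0.63 ± 0.21 (adjusted p = 0.144) although the pools did not overlap, and in arch against adipose tissue it was 0.70 ± 0.21 (adjusted p = 0.305). DESeq2 called the gene in all 3 comparisons. The glutamine carrier gene Slc1a5 (ASCT2) had 2448, 2568, 3500.1 and 3217 in arch, 3372, 2801, 2726 and 5094 in adipose tissue and 5855, 4404, 2891 and 7475 in thymus, with overlap and no call (-0.74 ± 0.32 in arch against thymus, adjusted p = 0.182).

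Other genes of the response to low amino acids were read from a list of 20, of which 16 were tested. In arch against thymus 3 rose and none fell, in adipose tissue against thymus 1 rose, and in arch against adipose tissue none was called. The share of all tested genes called higher against thymus was 3.99% in arch and 2.17% in adipose tissue. Atf4 had 6402, 7030.5, 5035 and 9092 in arch, 6293, 2550.2, 5770.0 and 3322 in adipose tissue and 2282, 2554, 916 and 1683 in thymus, and rose by 1.95 ± 0.37 in arch against thymus (limma adjusted p = 0.00269). Its change in adipose tissue against thymus was 1.26 ± 0.37 (adjusted p = 0.0785). Cebpb, whose product can pair with ATF4, had 555, 4143, 1881 and 4773 in arch, 1224, 1107, 937 and 1589 in adipose tissue and 1.13, 5.98, 239 and 0 in thymus. It rose by 5.72 ± 0.93 in arch (adjusted p = 0.000643) and by 4.88 ± 0.93 in adipose tissue (adjusted p = 0.00402), each against thymus. Arch pools 2 and 4 held the highest values of Atf4 and Cebpb and also had raised markers of other cells. The part of those cells was not tested. The list median was 0.31 in arch against thymus and 0.72 in adipose tissue against thymus, where the medians of all genes were -0.20 and -0.01.

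Metal carriers were measured for zinc, iron, copper, magnesium and haem, and 19 of 27 were tested. One fell in arch against thymus, none rose, and none was called in the other comparisons. The gene that fell was Slc39a6, which encodes the zinc importer ZIP6. It had 3.26, 0, 377 and 0 in arch pools 1 to 4, 1191, 534, 1238 and 778 in adipose pools and 1797, 1313, 1371 and 1286 in thymus pools. Each arch pool lay below each pool of the other tissues, and adipose pools lay below thymus pools. In reads, the arch pools held 4, 0, 467 and 0, so pool 3 carried nearly all of the arch signal, and arch pool 1 held only 4 reads of 26093045. A count of 0 allows a value of up to 5.71 in arch pool 2 and 4.66 in arch pool 4 (3 reads; counting error only).

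The log2 change of Slc39a6 was -5.05 ± 0.95 in arch against thymus (limma adjusted p = 0.00273), -4.37 ± 0.95 in arch against adipose tissue (adjusted p = 0.0893) and -0.68 ± 0.95 in adipose tissue against thymus (adjusted p = 0.863). The fit averages log2 values, so the fall is larger than in the ratio of means, which was 0.0660 for arch over thymus and 0.102 for arch over adipose tissue. The call held without any 1 pool, with changes of -6.11 to -4.67, but neither edgeR nor DESeq2 made it (highest adjusted p 0.229). Without arch pool 3 the gene was also called lower in arch than in adipose tissue. The 3 genes outside the Slc names with the most similar profile over the 12 pools were Mcat (Pearson r = 0.970), Arfgef2 (0.948) and Gypc (0.941). Of these Mcat, which encodes a mitochondrial fatty acid synthesis enzyme, had 0, 0, 215 and 0 in arch, 261, 173, 209 and 453 in adipose tissue and 612, 356, 822 and 445 in thymus. Among arch pools it had reads in pool 3 alone, the pool that held nearly all Slc39a6 reads in arch. Over only 12 pools such likeness is a description, and all profiles share the pools' depths.

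The other zinc carriers varied without a call. Slc39a10 (ZIP10), the closest relative of ZIP6, had 1306, 371, 200.3 and 1155 in arch, 317, 579, 270.0 and 420.0 in adipose tissue and 519.6, 286, 7.28 and 349 in thymus (1.58 ± 1.00 in arch against thymus, limma adjusted p = 0.364). The zinc exporter gene Slc30a1 had 250, 164, 0 and 88.6 in arch, 594, 0, 214 and 98.8 in adipose tissue and 160.2, 0, 0 and 173 in thymus. Slc30a5, which loads zinc into the secretory pathway, averaged 2533 ± 1312 in arch, 2702 ± 978 in adipose pools and 2034 ± 364 in thymus pools (SD, n = 4). All 3 overlapped between tissues.

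The iron carrier gene Slc11a2 (DMT1) had 1024, 1615, 217 and 787 in arch, 607, 0, 303 and 663 in adipose tissue and 632, 1439, 1015 and 892 in thymus, and was not called. The copper importer gene Slc31a1 had 3842, 3199, 4438 and 2024 in arch, 1499, 3236, 3547 and 2749 in adipose tissue and 1711, 3023, 1017 and 803 in thymus, a change of 1.16 ± 0.43 in arch against thymus (limma adjusted p = 0.115). The haem carrier gene Slc48a1 averaged 1705 ± 282 in arch, 1562 ± 558 in adipose pools and 2146 ± 938 in thymus pools (SD, n = 4). Of 16 tested genes in a list of metal handling outside the carriers, 5 rose in arch and 2 rose in adipose tissue against thymus, and none fell. Among all tested genes 3.99% and 2.17% were called higher in these comparisons. Ftl1, the ferritin light chain gene, which also has processed copies, had 108472, 160952, 121300.0 and 124282 in arch, 80182, 92951, 97716 and 71299 in adipose tissue and 54004, 60561, 55858 and 55222 in thymus, with no overlap between thymus and the others. It rose by 1.18 ± 0.14 in arch (adjusted p = 2.37e-05) and by 0.59 ± 0.14 in adipose tissue (adjusted p = 0.0229). Atp2b1, a plasma membrane calcium pump gene, also rose in both, by 2.38 ± 0.41 and 2.17 ± 0.41 (adjusted p = 0.00118 and 0.00381).

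No sugar carrier was called in any comparison, of 10 tested of 14. One had an unadjusted p under 0.05 in arch against thymus, 1 in adipose tissue against thymus and 0 in arch against adipose tissue, and edgeR and DESeq2 also called none. The glucose carrier gene Slc2a1 (GLUT1) had 2519, 365, 1434 and 4364 in arch, 1077, 1547, 504 and 998 in adipose tissue and 818, 1359, 1365 and 777 in thymus. Arch pools spanned the widest range and overlapped both other tissues. Slc2a3 (GLUT3) had 514, 0, 756 and 1171 in arch, 143, 0, 1237 and 763 in adipose tissue and 480.0, 0, 0 and 676 in thymus. Pools at 0 occurred in each tissue, and all changes stayed uncalled (1.54 ± 1.60 in arch against thymus, limma adjusted p = 0.61).

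Slc50a1, the mammalian SWEET sugar carrier gene, had 1402, 2713, 1331 and 577 in arch, 579.9, 1265, 1942 and 1043 in adipose tissue and 1996, 3986, 2076 and 2927 in thymus. Adipose pools lay below thymus pools, but the change of -1.24 ± 0.50 was not called (limma adjusted p = 0.27). Slc37a2, a sugar phosphate carrier gene of the endoplasmic reticulum, averaged 869.8 ± 512 in arch, 993 ± 304 in adipose pools and 1635 ± 504 in thymus pools (SD, n = 4). Of 19 tested genes of glucose uptake and use outside the carriers, 1 rose and 1 fell in arch against thymus and none was called elsewhere. For arch against thymus the background shares were 3.99% (higher) and 2.58% (lower). A single call each way does not set this list apart from that background. The median log2 change there was -0.20 for the list and -0.20 for all genes. The glycolytic enzyme gene Tpi1 rose by 1.66 ± 0.41 (adjusted p = 0.0187), and Txnip, whose product lowers glucose uptake, fell with a change of -0.79 ± 0.21 (adjusted p = 0.0265).

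Nucleotide sugar carriers held the gene with the smallest adjusted p of all Slc genes. Slc35d1 encodes a carrier of UDP-glucuronic acid and UDP-N-acetylgalactosamine in the endoplasmic reticulum, which in mice is needed for chondroitin sulphate in cartilage (chromosome 4, 103170649 to 103215164, reverse strand). It had 11027, 12425, 13585 and 3958 in arch pools, 9976, 9476, 11123 and 13495 in adipose pools and 1004, 1765, 1106 and 1644 in thymus pools. The lowest arch value, in pool 4, still exceeded every thymus pool, and arch and adipose pools overlapped. The gene rose by 2.77 ± 0.34 in arch (limma adjusted p = 3.78e-05) and by 3.01 ± 0.34 in adipose tissue (adjusted p = 2.28e-05), each against thymus, and differed by -0.24 ± 0.34 between arch and adipose tissue (adjusted p = 0.845). Both calls held in every setting tried.

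The other 15 of 16 tested nucleotide sugar carriers were not called in any comparison. Slc35b1, which in human cells exchanges ATP across the endoplasmic reticulum membrane, averaged 3269 ± 872 in arch, 3594 ± 1047 in adipose pools and 2071 ± 1185 in thymus pools. Slc35a4 averaged 2653 ± 1493 in arch, 2679 ± 650.1 in adipose pools and 2876 ± 953 in thymus pools (SD, n = 4), and all tissues overlapped. The class took 11.9% ± 1.06 of Slc signal in arch, 12.96% ± 0.318 in adipose pools and 8.85% ± 0.727 in thymus pools (SD, n = 4). Slc35d1 alone took 4.43% ± 1.88 in arch, 4.84% ± 0.568 in adipose pools and 0.630% ± 0.150 in thymus pools. The 19 other members together took 7.43% ± 1.51 in arch, 8.12% ± 0.583 in adipose pools and 8.22% ± 0.726 in thymus pools. Their pools overlapped, at 5.42% to 8.99% in arch, 7.54% to 8.67% in adipose tissue and 7.31% to 8.81% in thymus.

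**Figure D3:**
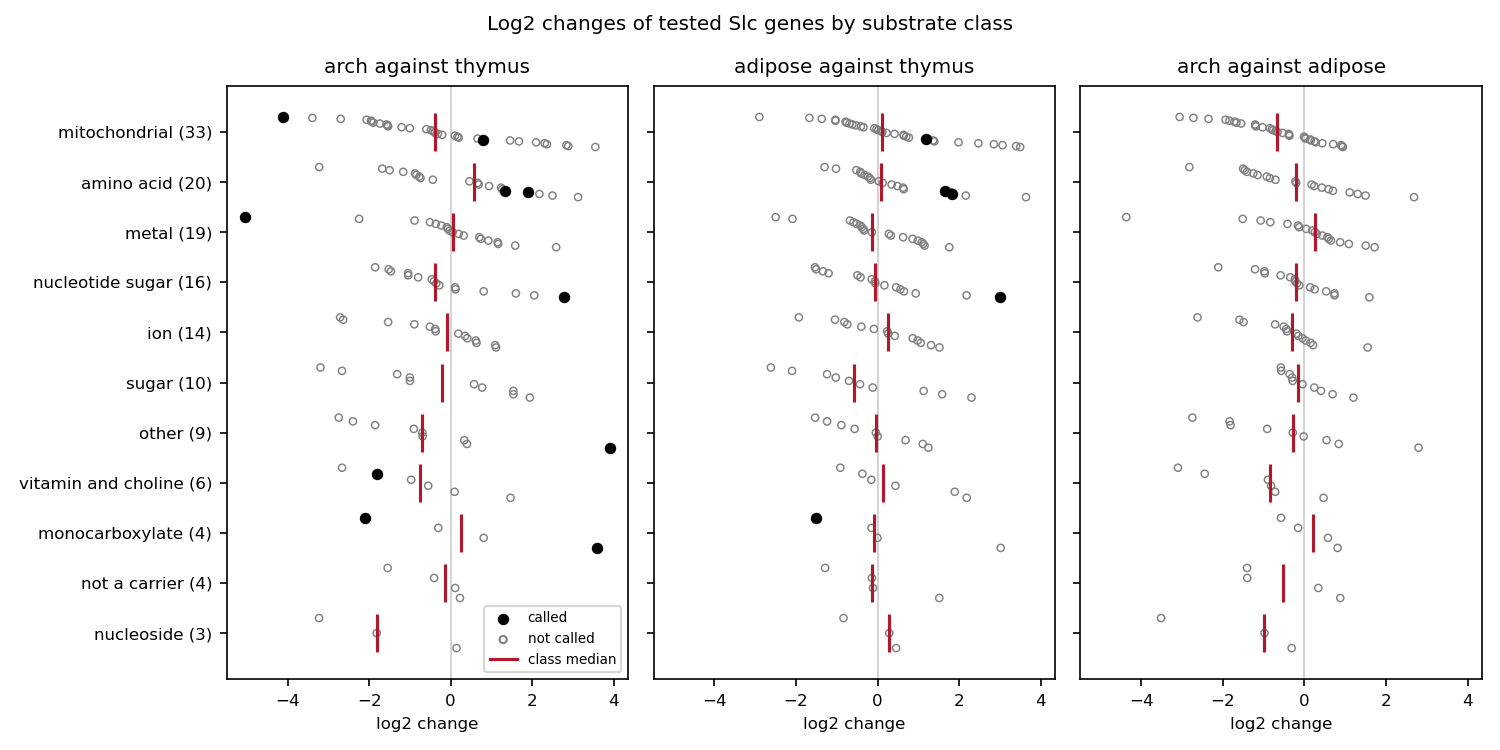
Log2 changes (horizontal axes) of the 138 tested Slc genes by substrate class in arch against thymus, adipose tissue against thymus and arch against adipose tissue. Filled points are called, open points are not, red bars are class medians, and the number of tested members stands beside each class; most points are open, and in the larger classes they lie on both sides of 0.

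Mitochondrial carriers were the class measured most completely, with 33 of 37 tested. One rose and 1 fell in arch against thymus, 1 rose in adipose tissue against thymus, and none was called in arch against adipose tissue. The class median was -0.39 in arch against thymus, 0.12 in adipose tissue against thymus and -0.66 in arch against adipose tissue, where the medians of all genes were -0.20, -0.01 and -0.17. Of the 33, 13 lay above 0 in arch against thymus, 19 in adipose tissue against thymus and 11 in arch against adipose tissue. The class share of Slc signal was 35.7% ± 2.19 in arch, 36.9% ± 3.31 in adipose pools and 34.9% ± 0.912 in thymus pools (SD, n = 4), with overlapping pools.

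Slc25a3, the phosphate carrier that supplies ATP synthesis (chromosome 10, 91116574 to 91124059, reverse strand), had 20390.1, 12636, 20807 and 17158 in arch pools, 20765, 17713, 25630.0 and 27897 in adipose pools and 9073, 10107, 9015 and 12065 in thymus pools. Every arch and adipose pool lay above every thymus pool. It rose by 1.18 ± 0.20 in adipose tissue (limma adjusted p = 0.00173) and by 0.80 ± 0.20 in arch (adjusted p = 0.0237), each against thymus. The arch call was lost without arch pool 1 or 3 or without thymus pool 1, 2 or 3, with adjusted p up to 0.0694 and a change between 0.71 and 0.95. The adipose call held in every setting tried.

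Neither of the ADP and ATP exchangers was called. Slc25a5 had 35175, 45386, 37377 and 38726 in arch, 26204, 38511, 34377 and 30708 in adipose tissue and 37119.9, 36129.6, 33848 and 29443 in thymus. Its spread within tissues, an SD of 0.185 on the log2 scale, was the smallest of the tested Slc genes, and arch against thymus gave 0.20 ± 0.15 (limma adjusted p = 0.476). Mouse Slc25a5 has near-identical processed copies in the genome, and how their reads were split is not given in the sources used here. Slc25a4, the form typical of heart and muscle, had 4655, 5516, 6686 and 1859.5 in arch, 3552, 4551, 4483 and 4144 in adipose tissue and 5290.3, 5197, 4899.9 and 6938 in thymus. Adipose pools lay below thymus pools for Slc25a4, but the change of -0.41 ± 0.33 was not called (adjusted p = 0.701).

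Slc25a22, a mitochondrial glutamate carrier gene (chromosome 7, 141429744 to 141437892, reverse strand), had 0, 0, 95.3 and 29.5 in arch, 230.1, 0, 82 and 107 in adipose tissue and 753, 895, 589.9 and 443 in thymus. All thymus pools lay above all others, and 2 arch pools and 1 adipose pool had no read. The change was -4.10 ± 1.04 in arch against thymus (limma adjusted p = 0.0229) and -2.90 ± 1.04 in adipose tissue against thymus (adjusted p = 0.188). The arch call was lost without arch pool 1 or 2 or without thymus pool 1 or 2, with adjusted p up to 0.0613. It was also lost by edgeR and DESeq2, with a pseudocount of 5, and without the pools of fewest reads or of raised markers.

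Slc25a33, a pyrimidine nucleotide carrier gene, had no read in any thymus pool, where a count of 0 allows 1.70, 2.24, 4.37 and 2.47 in pools 1 to 4. It had 456, 829, 350.5 and 0 in arch and 380.0, 813, 0 and 277 in adipose tissue, where 1 pool each was also at 0. The changes were not called (limma adjusted p = 0.108 in arch and 0.232 in adipose tissue against thymus), though DESeq2 called the gene in both. Outside the Slc names, 14 mitochondrial transport genes were tested and Ucp2, which encodes a carrier of the same protein family, was the only one called. It had 20059.5, 10110.1, 19732 and 16272 in arch, 15788, 23877, 22059 and 19137 in adipose tissue and 31036, 35755, 36201 and 35009 in thymus. It fell in both comparisons with thymus, with changes of -1.11 ± 0.21 in arch (adjusted p = 0.00244) and -0.79 ± 0.21 in adipose tissue (adjusted p = 0.0456). Among all tested genes 2.58% and 0.67% were called lower in these comparisons.

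**Figure D4:**
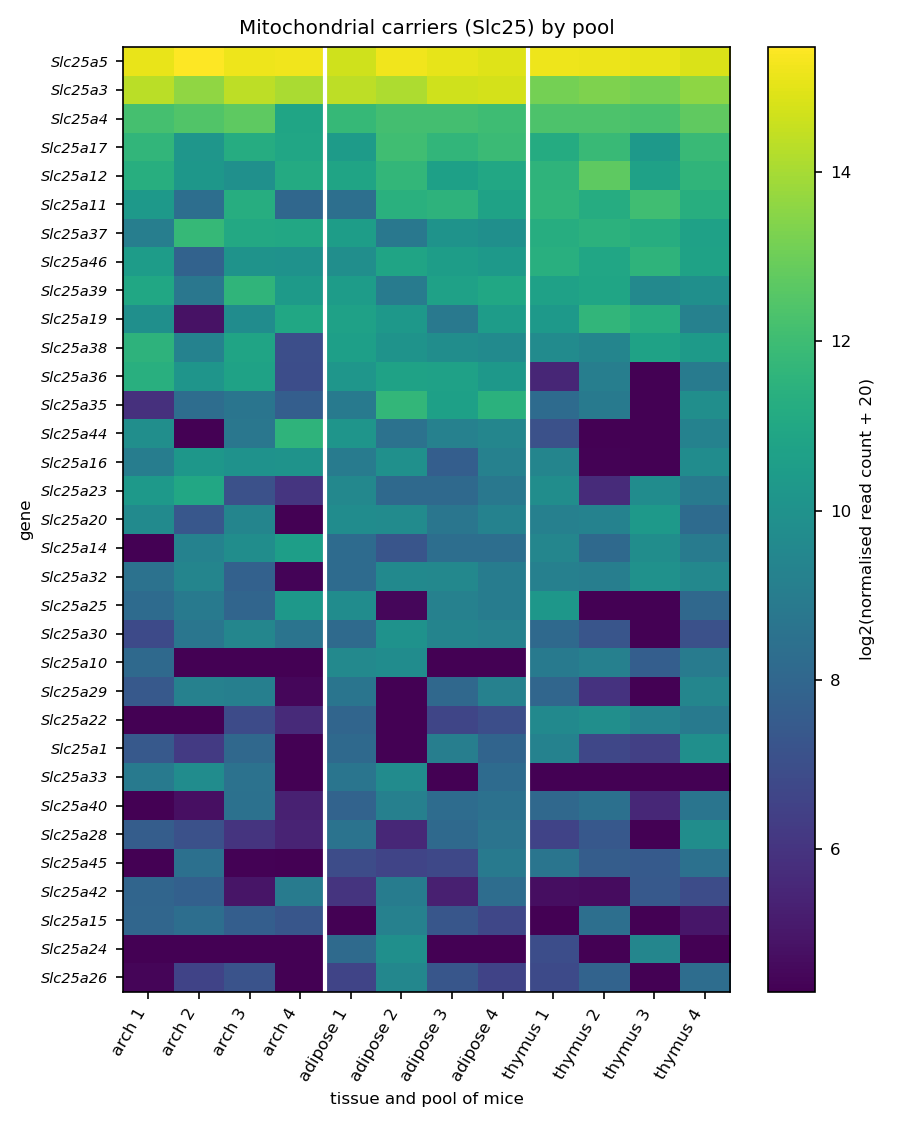
Log2(normalised read count + 20), as colour, of the 33 tested Slc25 genes (rows, by mean level) in the 12 pools of arch, adipose tissue and thymus (columns). Darkest cells are pools without a read. Slc25a33 is dark in all 4 thymus pools and Slc25a24 in all 4 arch pools, and other genes of the lower rows go dark in 1 or more pools of a tissue.

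Of 9 monocarboxylate carriers 4 were tested. Slc16a5 (chromosome 11, 115462474 to 115474398, forward strand) encodes the family member MCT6. It had 3125, 2711, 2468 and 2466 in arch pools, 2856, 5867, 2996 and 5084 in adipose pools and 10716, 14627, 10642 and 10386 in thymus pools, and all thymus pools lay above all others. It fell by 2.09 ± 0.27 on the log2 scale in arch (limma adjusted p = 7.15e-05) and by 1.52 ± 0.27 in adipose tissue (adjusted p = 0.0025), each against thymus, and both calls held in every setting tried. The lactate carrier gene Slc16a1 (MCT1) had 2629, 2239, 3511 and 2485 in arch, 3134, 1576, 3308 and 4823 in adipose tissue and 2261, 3377, 4543 and 3439 in thymus, with overlap throughout. Slc16a10, an aromatic amino acid carrier gene of this family, averaged 783 ± 413 in arch, 442 ± 355 in adipose pools and 526 ± 347 in thymus pools (SD, n = 4).

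Slc16a6 (MCT7), reported to carry ketone bodies in zebrafish liver (chromosome 11, 109450855 to 109473598, reverse strand), had 747, 759, 425 and 948 in arch, 696, 325, 185 and 1005 in adipose tissue and 7.36, 32.2, 0 and 400.1 in thymus. Arch pools lay above thymus pools, and thymus pool 4 stood above the other thymus pools. The gene rose by 3.60 ± 1.03 in arch against thymus (limma adjusted p = 0.0439). That call held in 1 of 8 fits without 1 pool, the one without thymus pool 4, and in 3 of 10 other settings, with adjusted p up to 0.111 without 1 pool and 0.418 in other settings. It was lost without the pools with raised markers of other cells, at 3.31 ± 1.33 (limma adjusted p = 0.206). The log2 change was 3.08 to 4.54 in the fits without 1 pool. Exons of Slc16a6 share 611 bases with Amz2 and 48 with Arsg on the opposite strand, and strand use in counting is not given in the sources used here, so reads of these genes cannot be told apart there. Amz2 averaged 2376 in arch, 1494 in adipose pools and 2266 in thymus pools.

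Slc5a3, which brings in the osmolyte myo-inositol with sodium (chromosome 16, 92058322 to 92087473, forward strand), had 1376, 1259, 736 and 2985 in arch, 490.4, 344, 134 and 40.4 in adipose tissue and 79.8, 39.6, 0 and 653 in thymus. Arch pools lay above all others, highest in pool 4, where fibroblast markers were also highest. The gene rose by 3.91 ± 1.09 in arch against thymus (limma adjusted p = 0.0378), and arch against adipose tissue gave 2.80 ± 1.09 (adjusted p = 0.419). The call held without arch pool 3 and without thymus pool 4, and was lost without any other 1 pool, with adjusted p up to 0.0951. It held in 3 of 10 other settings, with adjusted p up to 0.306, and was lost without the pools with raised markers of other cells, at 3.44 ± 1.38 (limma adjusted p = 0.204). The log2 change was 3.16 to 4.85 in the fits without 1 pool. Slc5a3 shares 159 exon bases with Mrps6 on the same strand, and Mrps6 averaged 2536 in arch, 2386 in adipose pools and 1277 in thymus pools.

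Among vitamin and choline carriers, 6 of 14 were tested and 1 was called. Slc44a2, a choline transporter-like protein gene (chromosome 9, 21320698 to 21355028, forward strand), had 5366, 1240.2, 4275 and 3602 in arch, 5966, 7813, 4721 and 5658 in adipose tissue and 11084, 14027, 8524 and 11878 in thymus. Thymus pools lay above all others, and arch pool 2 was the lowest. It fell by 1.81 ± 0.35 on the log2 scale in arch against thymus (limma adjusted p = 0.00361), in every setting tried. In adipose tissue against thymus the change was -0.91 ± 0.35 (adjusted p = 0.245), which passed when only those 2 tissues were fitted and without the pools of fewest reads. The vitamin C carrier gene Slc23a2 averaged 804 ± 706 in arch, 506 ± 477 in adipose pools and 546 ± 228 in thymus pools (SD, n = 4).

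Ion carriers gave no call, of 14 tested of 28. In arch against thymus 4 had an unadjusted p under 0.05, in adipose tissue against thymus 2 and in arch against adipose tissue 1. edgeR called none, and DESeq2 called the bicarbonate exchanger gene Slc4a2 lower in adipose tissue against thymus. The phosphate importer gene Slc20a1 had 3501, 1849, 1988 and 1118 in arch, 2624, 3189, 2849 and 2099 in adipose tissue and 1631, 2068, 637 and 1188 in thymus, with adipose pools above thymus pools (1.06 ± 0.43, limma adjusted p = 0.282). Slc9a9, an endosomal sodium and proton exchanger gene, averaged 1914 ± 1281 in arch, 2499 ± 851 in adipose pools and 4468 ± 1818 in thymus pools (SD, n = 4), and was not called.

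Nucleoside carriers gave no call either, by limma, edgeR or DESeq2, of 3 tested of 6, and 1 had an unadjusted p under 0.05 in arch against thymus. Slc29a1 (ENT1), which equilibrates nucleosides across the plasma membrane, averaged 4255 ± 330.1 in arch, 5459.6 ± 1682 in adipose pools and 3986 ± 1205 in thymus pools (SD, n = 4). Slc29a3 (ENT3), its lysosomal relative, had 0, 0, 617 and 7.77 in arch, 654, 1046, 355 and 427 in adipose tissue and 398, 945, 367 and 328 in thymus. Its change in arch against thymus was -3.23 ± 1.11 (limma adjusted p = 0.0887), and it passed without arch pool 3, as did Slc10a7 and Slc25a11. The 4 tested genes named after carriers were not called. Slc9a3r1, a scaffold protein gene, had 3234, 2113, 2941 and 85.5 in arch, 5161, 2358, 2376 and 3602 in adipose tissue and 4501, 3282, 4661 and 2223 in thymus.

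Many Slc genes of middling level were detected in some pools of a tissue and not in others. Of the 138 tested, 69 had reads in all 12 pools and 69 had at least 1 pool at 0. In arch, 45 had a pool at 0, and 24 of them had another arch pool at 500 or more. In adipose tissue the counts were 32 and 18, and in thymus 38 and 16. The same counts were not made over all tested genes, so they do not show a trait of Slc genes. The median SD within tissues was 1.54 for Slc genes and 1.08 for all tested genes on the log2 scale. Tested Slc genes without a read numbered 15, 20, 6 and 25 in arch pools 1 to 4, 5, 17, 11 and 3 in adipose pools and 11, 15, 30 and 9 in thymus pools. Thymus pool 3, with 13473516 recovered reads, had the most, at 21.7% of tested Slc genes against 11.4% of all tested genes. Arch pool 2, with 11577253 reads, had 14.5% against 14.3%, and arch pool 4, with 14291241, had 18.1% against 16.2%. Adipose pool 2, the only pool of 1 library, with 14279190 reads, had 12.3% against 9.81%. The part of depth in these zeros was not tested. A value of 0 means that no read was recovered in that pool and does not show an absent transcript.

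**Figure D5:**
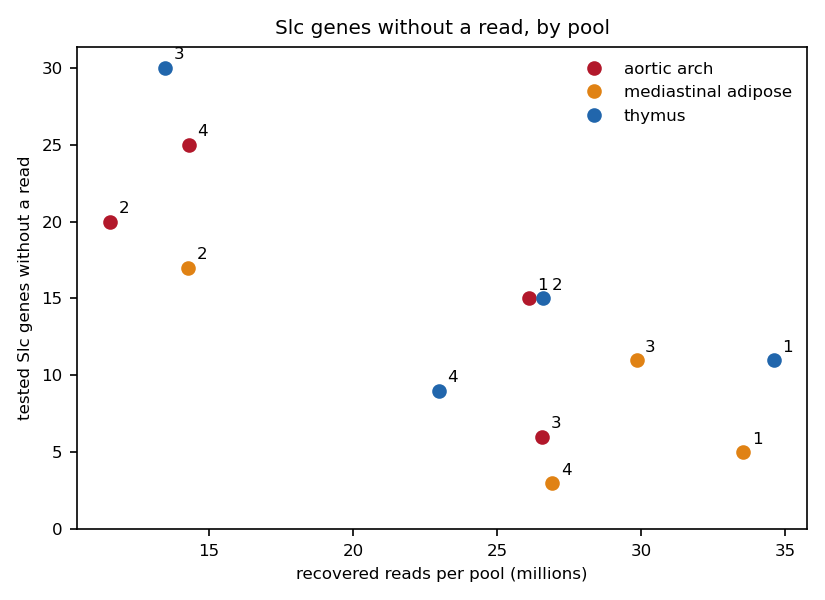
Tested Slc genes without a read (vertical axis) against recovered reads per pool (horizontal axis) for 4 pools each of arch, adipose tissue and thymus, labelled by pool number. The 4 pools with the fewest reads had 17 to 30 such genes and the 8 others had 3 to 15.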

How the data were processed

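RNA of sorted double positive thymocytes was amplified for 18 cycles from 200 cells per library (400 cells were sorted) and read as single ends of 50 bp, per the labels' protocols. The submitters' processing notes name FastQC 0.11.5, STAR 2.6.0c and the build GRCm38. How reads were assigned to genes, and with which annotation, is not given in the sources used here. Values of the signal deposited by the authors are a read count per gene divided by 1 size factor per column. Dividing by each column's step, the value of 1 read, gave whole numbers within 0.01 for all 120369 values above 0 (100%). Column names match the ends of the samples' descriptions, whose titles give the tissue and pool, and pools were the replicates.

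limma 3.58.1 (R 4.3.3) with an intensity trend was run on log2(value + 20) of the 9106 genes with at least 100 in at least 4 of 12 columns (4.91 CPM in the median column), in 1 fit with tissue as the only term. The pseudocount lowers changes of weakly expressed genes. Errors are SE for log2 changes and SD over 4 pools for levels. Reads carry no molecular identifiers, so limits from a count of 0 cover counting error only. edgeR 4.0.16 (quasi-likelihood, TMM) and DESeq2 1.42.0 were run on the recovered reads as alternatives, beside other pseudocounts, filter, scaling and pool choices. All tools were tested on simulated data. DESeq2 made more false calls there than limma or edgeR in the comparisons with arch and first failed the limit set for the test. That limit was then widened for DESeq2 alone, with its code unchanged, so its pass is at a limit set after the failure, and its additional calls are to be read with that. The simulation gave every gene the same setting of spread between pools. In the data the SD within tissues ran from 0.185 to 2.86 (log2) among tested Slc genes. The simulation therefore cannot show how often each tool calls falsely at the spread of these data.

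The members, lists, tests and pools to leave out were chosen with earlier results of these data known. Genes named in the text were the called ones (up to 8 per comparison and direction), the 3 highest tested members per class, a list of 18 carriers, and the 3 genes most correlated with Slc39a6. Results of 2 of these genes are not reported here. Genes called by another tool or setting alone were named for that, after their values were seen, and other exceptions are stated. The 5 genes taken out of the carrier classes were set apart after their symbols were seen. Same-numbered pools of 2 tissues correlated at -0.0316 to 0.0756 in their deviations from the tissue means, and 0 of 12 pairs passed 0.1. Such correlations over noisy genes cannot show whether same-numbered pools came from the same mice, so pairing remains unknown. Sequences are from RefSeq and positions from the GENCODE annotation of GRCm38. Promoter windows on chromosome 18 were not used.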

Additional observations from a re-analysis of the deposited data

Results flagged for a closer look

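Each result below is a pool that lay far from the other 3 of its tissue by Dixon's test at the 95% level, which chance alone gives in about 1 in 20 groups. Of 125 groups tested 13 stood apart, and chance would give 6.25. In arch, pool 3 was high for Slc39a6 (377, the others at most 3.26) and for Slc29a3 (617, the others at most 7.77). Arch pool 4 was low for Slc35d1 (3958, the others at least 11027) and for the scaffold gene Slc9a3r1 (85.5, the others at least 2113). Arch pool 2 was low for Slc16a10 (192, the others at least 878) and for Slc48a1 (1286, the others at least 1805).

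In adipose tissue, pool 1 was low for the lysosomal sialic acid carrier gene Slc17a5 (117, the others at least 648) and for Slc30a5 (1264, the others at least 3011). In thymus, pool 3 was low for Slc17a5 (5.83, the others at least 1102) and for Slc16a10 (45.2, the others at least 565), and pool 4 was low for Slc35a4 (1482, the others at least 3115). Thymus pool 2 was high for Slc16a5 (14627, the others at most 10717) and for Slc7a5 (265, the others at most 5.77). Reads per library were fewest in arch pools 2 and 4 and in thymus pool 3, and the part of depth in these values was not tested.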

How the results depend on the processing

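Slc35d1, Slc3a2 and Slc16a5 in both comparisons with thymus, Slc38a2 and Slc44a2 in arch against thymus and Slc25a3 in adipose tissue against thymus kept their calls in all fits without 1 pool and in all other settings, which makes 9 of 15 calls. Without 1 pool in turn, 3 to 7 Slc genes were called higher and 3 to 7 lower in arch against thymus, 3 to 5 higher and 1 to 1 lower in adipose tissue against thymus, and 0 to 0 higher and 0 to 1 lower in arch against adipose tissue. In arch against thymus, the 3 higher came without arch pool 1, thymus pool 2 or thymus pool 3, the 3 lower without arch pool 1, thymus pool 1 or thymus pool 2, and the 7 lower without arch pool 3. In adipose tissue against thymus, the 3 higher came without adipose pool 1, 2 or 4 or thymus pool 3. In arch against adipose tissue, the 1 lower (Slc39a6) came without arch pool 3. Calls over all genes also moved in the fits without 1 pool. They numbered 404 to 620 in arch against thymus, 169 to 250 in adipose tissue against thymus and 2 to 14 in arch against adipose tissue. The number of Slc genes called lower in arch against thymus was 2 by edgeR, and in adipose tissue against thymus it was 2 by DESeq2, without the filter, with only the compared tissues and without the pools of fewest reads. DESeq2 called 7 higher in adipose tissue against thymus, and 1 higher and 1 lower in arch against adipose tissue. The causes were not tested. With the pool number as a replicate block, 6 and 4, 4 and 1, and 0 and 0 Slc genes were called higher and lower in the 3 comparisons, as without it. Calls over all genes, 598, 259 and 16, became 365, 212 and 8 by edgeR, 1007, 539 and 168 by DESeq2, 308, 319 and 0 without the pools of fewest reads and 345, 265 and 0 without those of raised markers. They became 421, 210 and 2 without the filter, 422, 302 and 12 with only the compared tissues and 608, 243 and 12 with the block. With TMM scaling the median of all genes moved by 0.01, 0.04 and -0.02 (log2). No called gene changed sign in any setting. Uncalled named genes did, most often without the pools of fewest reads (18 of 132 log2 changes) and without those of raised markers (17). With few or no reads in a pool a level is imprecise, and the part of depth in the zeros was not tested.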
